A study of Mus musculus with 6 samples.

Results

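The microRNAs (miRNAs) of 4 mouse families, miR-297, miR-466, miR-467 and miR-669, were followed in kidneys of C57BL/6 and MRL/lpr mice. All rows of the count table whose name starts with mmu-miR- and carries one of these numbers, with any letter, copy or arm, were taken, which gave 68 of 1542 rows. The miR-466 family held 28 of these rows, miR-669 held 23, miR-467 held 11 and miR-297 held 6. By arm, 31 rows were 5p, 31 were 3p and 6 named no arm. Small RNA was sequenced from kidney tissue of female mice aged 17 weeks, with 3 libraries of wild-type C57BL/6 mice and 3 of MRL/MpJ-Fas lpr/J mice. The second strain, called MRL/lpr, carries the lpr mutation of the death receptor gene Fas on the MRL background and develops a spontaneous lupus-like disease with nephritis. Background, mutation and disease differ together between the groups and cannot be told apart. The labels do not say whether each library came from a separate animal, so p-values measure only the spread between these libraries.

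A miRNA is cut from a hairpin precursor, whose 5′ side gives the 5p arm and whose 3′ side gives the 3p arm. Bases 2 to 8 of the mature strand, the seed, pair with the messenger RNAs that the miRNA represses. Most hairpins of the 4 families lie as tandem copies in an intron of Sfmbt2, which encodes a Polycomb group protein and is expressed from the paternal allele in extraembryonic tissue, and the cluster is best known from placenta and embryonic stem cells. RefSeq mature sequences (GRCm38.p6) were matched for 5 of the 68 rows, all from hairpins outside Sfmbt2. They are printed 5′ to 3′, with the seed in capitals, because they show a U- and G-rich and an A- and C-rich kind of repeat among strands that carry these family numbers.
miR-466k: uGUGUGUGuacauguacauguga
miR-466j: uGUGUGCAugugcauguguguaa
miR-467h: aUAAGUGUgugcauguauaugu
miR-466i-3p: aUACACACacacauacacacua
miR-467f: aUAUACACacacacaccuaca
The first 3 were rich in U and G (69.6%, 73.9% and 68.2% of bases) and the other 2 in A and C (86.4% and 85.7%). The 5 seeds all differed. In the order printed, these strands lie at chr3:85467396-85467418, chr10:60960802-60960824, chr9:115381898-115381919 and chr13:17747552-17747573 (plus strand) and chr11:69635419-69635439 (minus strand). In GENCODE the hairpin of miR-466i lies in Cdk13 and that of miR-467f in Fxr2. All 5 were scarce: miR-466k had 1, 6 and 1 counts in the C57BL/6 libraries versus 4, 3 and 3 in the MRL/lpr libraries, miR-466j had 7 counts in all, miR-466i-3p had 3, miR-467h had 1 and miR-467f had 0. The rows matched only to hairpins outside Sfmbt2, which are these 5 and miR-466i-5p, held 8, 11 and 9 counts in C57BL/6 versus 10, 13 and 5 in MRL/lpr, so they carried almost none of the counts described next.

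In GENCODE M21 (GRCm38) 72 of the 82 hairpins of these families lay inside Sfmbt2 (chr2:10370510-10595253, plus strand), none of them overlapping an exon. They filled 51.6 kb, from 10466663 to 10518279, of a single intron of 62472 bases (chr2:10461473-10523944) after exon 10 or 11, depending on the transcript. The 72 were 29 Mir669, 24 Mir466, 14 Mir467 and 5 Mir297 hairpins, with a median of 0.296 kb between neighbouring starts. Mir467 hairpins followed one another at a median of 2.45 kb, mostly with a Mir466 and a Mir669 hairpin between them, so that a set of 3 repeats along the intron. The 10 other hairpins lay on chromosomes 3, 5, 7, 9, 10, 11 and 13. By name, 56 rows came only from hairpins inside Sfmbt2, 6 only from outside and 4 from both, while miR-466a-5p and miR-466a-3p could not be matched by name. miR-669a was matched to 12 hairpins, miR-467a to 10 and miR-466b to 8, and the counts do not show which copy a read came from.

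Together the families made up a larger share of kidney miRNA counts in MRL/lpr than in C57BL/6. The 68 rows took 0.0282%, 0.0460% and 0.0264% of all counts in C57BL/6 replicates 1, 2 and 3, and 0.0856%, 0.0663% and 0.0696% in MRL/lpr replicates 1, 2 and 3. The lowest MRL/lpr library lay above the highest C57BL/6 library. The group means were 0.0336% ± 0.0109 and 0.0739% ± 0.0103 (SD, n = 3), a 2.20-fold ratio (exact two-sided permutation p = 0.1, the smallest that 3 against 3 can give). On the TMM-scaled CPM scale (counts brought to a common library size) the sums were 313, 459.6 and 279 in C57BL/6 versus 781, 677 and 640.0 in MRL/lpr, a 1.99-fold ratio of means. The families were thus a minor part of the kidney miRNAs in both strains. In each library 36 to 42 of the 68 rows had at least 1 count in C57BL/6 and 45 to 49 in MRL/lpr. The total counts behind these values ran from 5259528 to 6773829 per library.

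Near-identical copies can share reads, so counts were also summed by family number and arm. The 68 rows gave 10 sums, of which 8 passed the filter on low counts. miR-467-5p and miR-297-5p rose in MRL/lpr, and none of the 8 fell (edgeR quasi-likelihood test over 437 rows, Benjamini-Hochberg adjusted p under 0.05; of all rows tested there, 4.58% were called higher and 2.06% lower, 6.64% in either direction). The log2 fold changes of the 8 (MRL/lpr over C57BL/6) ran from 0.74 to 1.72 with a median of 1.15, against a median of -0.014 over all rows tested. For all 8 sums each MRL/lpr library was higher than each C57BL/6 library, which held in that direction for 14.6% of the rows tested. The 6 sums that did not pass had edgeR adjusted p from 0.0668 to 0.326.

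**Figure D1:**
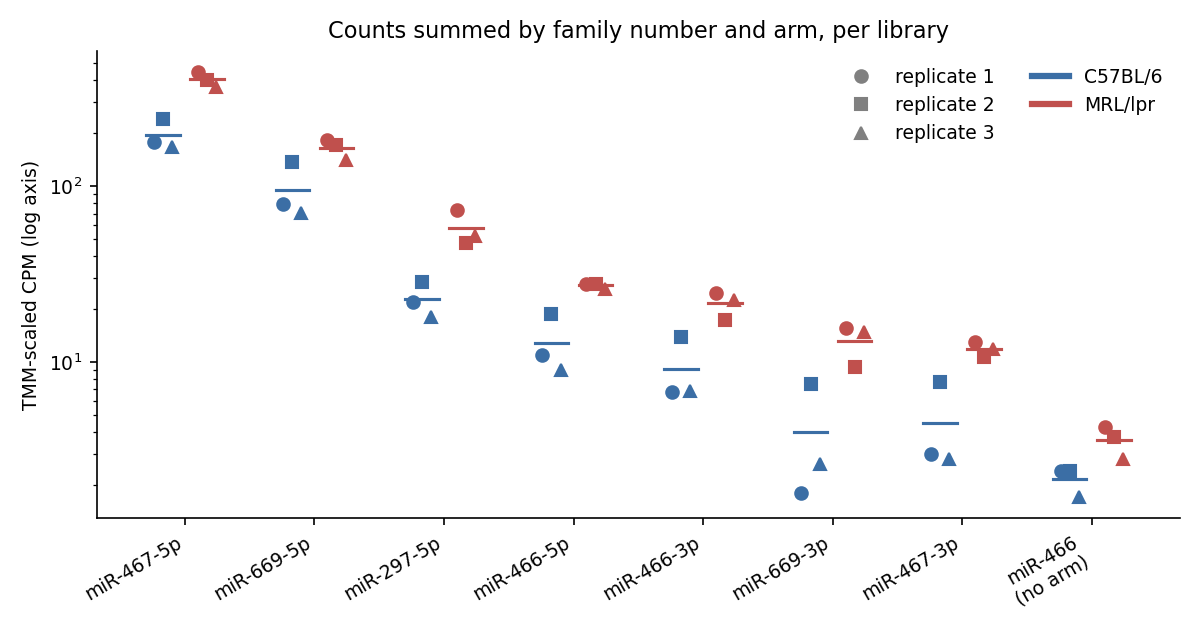
TMM-scaled CPM (log axis) of the 8 tested sums of counts by family number and arm, for each library (marker shape gives the replicate, colour the strain, and horizontal lines the group means). Each MRL/lpr library is above each C57BL/6 library in all 8 sums, and C57BL/6 replicate 2 is the highest C57BL/6 library in all 8.

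The miR-467 5p strands were the bulk of the cluster's output, with 57% of the counts of the 68 rows. Their sum was 179, 243 and 166 CPM in the C57BL/6 libraries versus 447, 402 and 367 CPM in the MRL/lpr libraries. The sum rose 2.07-fold (log2 fold change 1.05 ± 0.22 SE, edgeR adjusted p = 0.0167). Most of it was miR-467a-5p, the most abundant single row, which is made from the copies that recur through the middle of the intron. miR-467a-5p had 125, 143 and 112.5 CPM in C57BL/6 versus 296, 252.5 and 238 CPM in MRL/lpr. It rose 2.06-fold (log2 fold change 1.05 ± 0.20 SE, edgeR adjusted p = 0.0154), and its part of the family counts was 37.15% ± 5.24 for C57BL/6 against 37.5% ± 0.429 for MRL/lpr (SD, n = 3; exact permutation p = 1.0).

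miR-467b-5p, from the single hairpin Mir467b (chr2:10481248-10481320), was scarcer. It had 7, 7 and 7 counts in C57BL/6 versus 30, 15 and 21 in MRL/lpr, or 1.22 ± 0.188 and 3.54 ± 0.665 CPM (SD, n = 3), and rose 2.92-fold (log2 fold change 1.54 ± 0.39 SE, edgeR adjusted p = 0.0481). This call was lost in 11 of 13 alternatives, DESeq2 (adjusted p = 0.158), no filter (edgeR adjusted p = 0.113) and each library left out among them. The other 3 miR-467 5p strands come from single hairpins too and did not pass the test. miR-467e-5p, the second most abundant row, had 31.9, 58.2 and 31.8 CPM in C57BL/6 versus 76.8, 77.8 and 70.7 CPM in MRL/lpr (log2 fold change 0.89 ± 0.28 SE; edgeR, adjusted p = 0.0909). The row miR-467c-5p had 14.7, 27.8 and 15.3 CPM against 47.0, 37.5 and 35.4 CPM (edgeR adjusted p = 0.0662). miR-467d-5p had 10.2, 13.2 and 6.54 CPM against 17.6, 22.9 and 20.5 CPM (edgeR adjusted p = 0.0836). All 7 tested miR-467 rows, 3p strands included, had groups that did not overlap, MRL/lpr being higher, as did 14.0% of all 451 miRNAs tested. Among the 7, miR-467b-5p reached the count minimum of the filter only in MRL/lpr libraries and so had to be higher there.

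The miR-297 5p strands, 7.73% of the family counts, also rose. Their sum was 22.0, 28.7 and 18.0 CPM in C57BL/6 versus 73.4, 47.4 and 52.2 CPM in MRL/lpr, a 2.52-fold difference (log2 fold change 1.33 ± 0.28 SE, edgeR adjusted p = 0.0165). It was made of similar parts of miR-297a-5p and miR-297c-5p, and the larger of these held 50.9% to 61.1% of the sum in every library. miR-297a-5p, which has a hairpin on chromosome 7 besides those in Sfmbt2, had 10.2, 17.4 and 9.97 CPM in C57BL/6 versus 37.6, 28.3 and 25.3 CPM in MRL/lpr (2.42-fold, edgeR adjusted p = 0.0371). miR-297c-5p, from the single hairpin Mir297c (chr2:10509016-10509113), had 12.3, 10.8 and 7.63 CPM and 34.2, 17.3 and 26.6 CPM in the same order (2.56-fold, edgeR adjusted p = 0.0381). It was 1 of 3 tested rows that were not highest, within C57BL/6, in replicate 2. The miR-297 3p strands had 6 counts in all.

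The miR-669 5p strands were the second largest group, with 24.7% of the family counts, and their difference did not pass the test. Their sum was 79.5, 137 and 70.2 CPM in C57BL/6 versus 184, 172 and 141 CPM in MRL/lpr (log2 fold change 0.79 ± 0.28 SE, edgeR adjusted p = 0.13). The highest C57BL/6 library came within a few CPM of the lowest MRL/lpr library. The sum was spread over many rows: miR-669b-5p, the leading one in every library, held 26.4% to 33.9% of it. miR-669b-5p had 21.5, 37.9 and 21.6 CPM in C57BL/6 versus 61.6, 53.6 and 43.4 CPM in MRL/lpr (log2 fold change 0.97 ± 0.29 SE; edgeR, adjusted p = 0.079). The row miR-669l-5p had 17.0, 21.2 and 12.8 CPM against 28.2, 24.3 and 28.1 CPM (edgeR adjusted p = 0.169). Both had groups that did not overlap, MRL/lpr being higher, as in 3 of the 8 tested miR-669 rows and in 14.0% of all miRNAs tested. In 3 other abundant rows the groups overlapped through C57BL/6 replicate 2: miR-669d-5p (16.0, 30.7 and 12 against 36.6, 27.6 and 29.1 CPM), miR-669o-5p (13.3, 19.9 and 11.5 against 25.4, 29.7 and 16.9 CPM) and miR-669c-5p (6.34, 12.05 and 4.36 against 9.46, 13.2 and 8.44 CPM). Their edgeR adjusted p were 0.29, 0.245 and 0.576. miR-669c-5p had the lowest log2 fold change of the tested 5p rows (0.44 ± 0.42 SE).

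The miR-466 family has the most names and few counts, and no sum of it passed the test. Its 5p strands summed to 10.99, 18.8 and 8.99 CPM in C57BL/6 versus 28.0, 28.0 and 26.1 CPM in MRL/lpr (log2 fold change 1.08 ± 0.30 SE; edgeR, adjusted p = 0.0668). The row miR-466c-5p was the largest 5p row, at 4.30, 9.80 and 3.90 CPM in C57BL/6 versus 10.6, 14.4 and 10.4 CPM in MRL/lpr (edgeR adjusted p = 0.215). The 4 rows without an arm in the name, led by miR-466g in 5 of 6 libraries, summed to 12, 15 and 11 counts in C57BL/6 versus 30, 19 and 17 in MRL/lpr (log2 fold change 0.74 ± 0.39 SE, edgeR adjusted p = 0.326).

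Among the miR-466 3p strands, the row that held most counts differed between libraries. miR-466b-3p had 17, 40 and 27 counts in C57BL/6 versus 97, 1 and 0 in MRL/lpr, and its fitted log2 fold change was 0.012 ± 1.51 SE. miR-466c-3p had 0 counts in 4 libraries and 42 and 55 in MRL/lpr replicates 2 and 3, the libraries in which miR-466b-3p was at 1 and 0. miR-466a-3p had 24 and 28 counts in MRL/lpr replicates 1 and 3 and 0 elsewhere, and miR-466e-3p had 7, 13 and 2 counts in C57BL/6 versus 0, 11 and 0 in MRL/lpr. The largest row of the miR-466 3p sum was miR-466b-3p in 4 libraries and miR-466c-3p in the other 2. Added together, these 4 rows, chosen after their values were seen, had 24, 53 and 29 counts in C57BL/6 versus 121, 54 and 83 in MRL/lpr, or 5.98 ± 2.20 and 13.8 ± 3.30 CPM (SD, n = 3). The whole miR-466 3p sum was 6.79, 13.9 and 6.82 CPM in C57BL/6 versus 24.7, 17.5 and 22.6 CPM in MRL/lpr. Its log2 fold change was 1.23 ± 0.35 SE (edgeR adjusted p = 0.0668), with a standard error below those of its tested rows, which were 0.46 and 1.51.

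The largest miR-669 3p row also differed between libraries. miR-669a-3p had 7, 41 and 14 counts in C57BL/6 versus 87, 0 and 74 in MRL/lpr, while miR-669o-3p had 36 counts in MRL/lpr replicate 2 and 0 in the other 5 libraries. Read alone, miR-669a-3p had a log2 fold change of 1.26 ± 1.28 SE. With the 36 counts added, the 2 rows had 3.40 ± 2.79 CPM in C57BL/6 versus 10.5 ± 3.05 CPM in MRL/lpr (SD, n = 3), again chosen after their values were seen. The sum of all miR-669 3p strands was 1.80, 7.53 and 2.64 CPM in C57BL/6 versus 15.6, 9.32 and 14.9 CPM in MRL/lpr. Its log2 fold change of 1.72 ± 0.50 SE had the largest size of the 8 sums, with an edgeR adjusted p of 0.073. The miR-467 3p sum was 2.996, 7.69 and 2.79 CPM against 13.0, 10.7 and 11.9 CPM (log2 fold change 1.39 ± 0.43 SE, edgeR adjusted p = 0.0798), and miR-467d-3p was its leading row in every library.

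**Figure D2:**
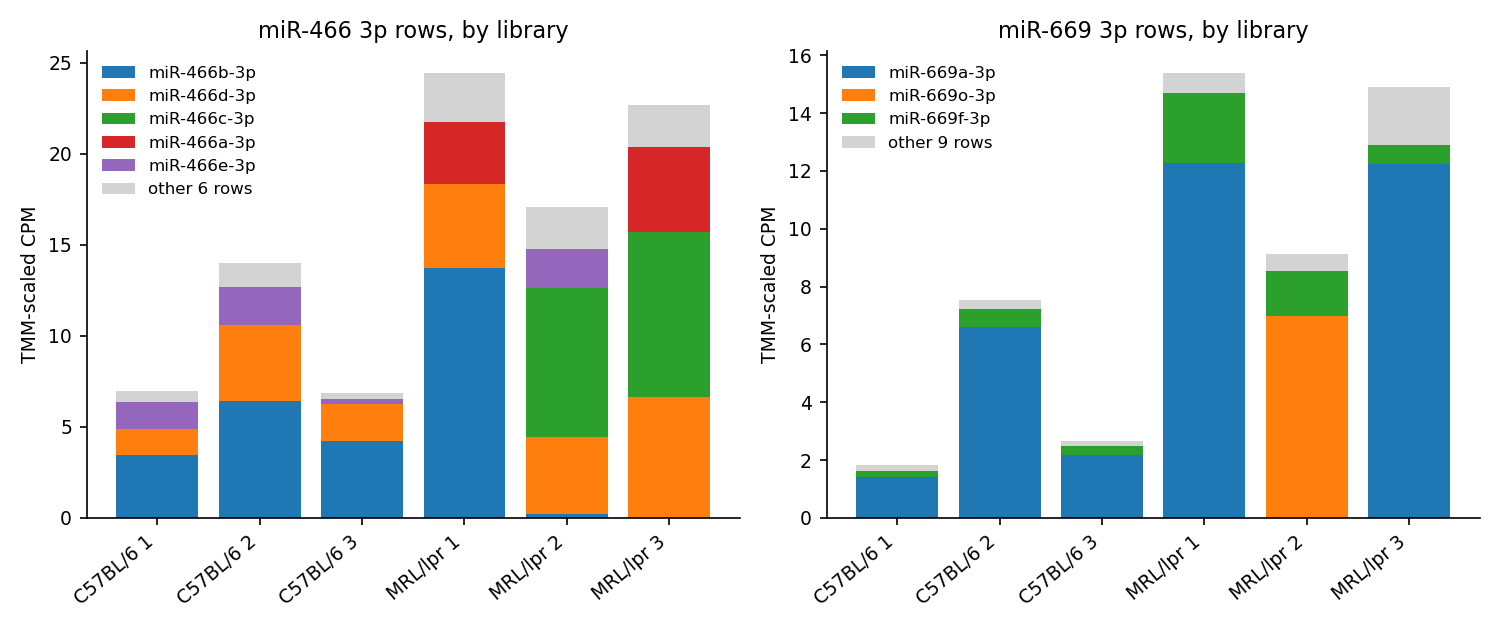
TMM-scaled CPM of the single rows that make up the miR-466 3p sum (left) and the miR-669 3p sum (right), stacked for each library on the scale of the single rows. Rows under 10 counts in every library are pooled in grey. miR-466c-3p is the largest part in MRL/lpr replicates 2 and 3, where miR-466b-3p is at or near 0, and miR-669o-3p in MRL/lpr replicate 2, where miR-669a-3p is at 0.

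Row by row, 22 of the 68 members passed the filter and were tested, and they held 96.3% of the family counts. Of the 22, 4 rose and none fell: miR-467a-5p, miR-467b-5p, miR-297a-5p and miR-297c-5p (edgeR, adjusted over 451 miRNAs). That is 18.2% of the members tested, where 4.21% of all miRNAs tested were called higher and 2.0% lower, 6.21% in either direction. All 22 log2 fold changes were above 0, from 0.012 to 1.54, with a median of 0.99. The lowest, miR-466b-3p, was at -0.03 with upper-quartile scaling, -2.68 with limma-voom and -1.92 with the replicate number as a block. With limma-voom miR-669a-3p was also below 0, at -0.13. Of the 22, miR-467b-5p and miR-466g reached the count minimum of the filter only in MRL/lpr libraries and so had to be higher there. Without them 3 of 20 members were called higher and 14 of 20 did not overlap. These values describe the rows that passed the filter, not all 68. Over all 451 miRNAs the median was -0.027, with 48.6% above 0 and 8.65% at or above the members' median. The groups did not overlap, with MRL/lpr higher, in 16 of 22 members and in 14.0% of all miRNAs tested; with MRL/lpr lower, in 0 members and in 14.9% of all. An unadjusted edgeR p under 0.05 was reached by 15 of the 22. The share of all miRNAs under that unadjusted threshold was not counted, so this number cannot be set against a background.

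**Figure D3:**
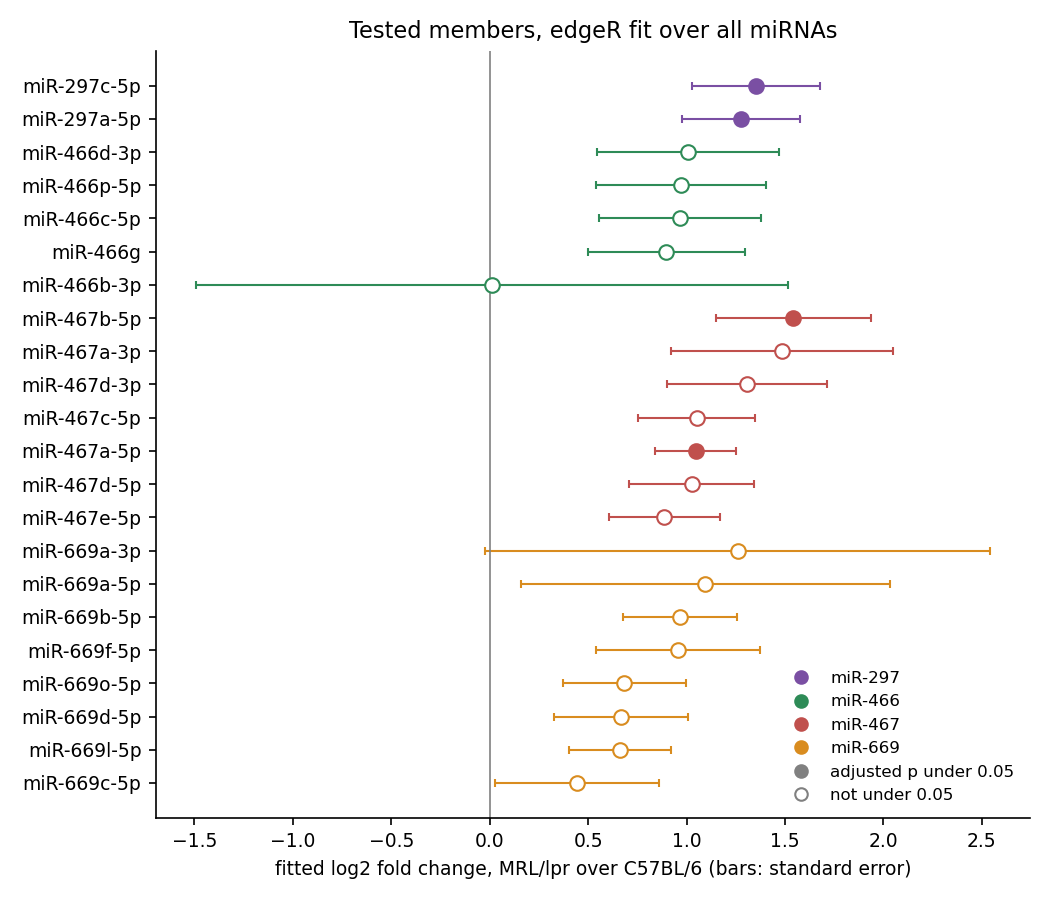
Fitted log2 fold change (MRL/lpr over C57BL/6) of the 22 tested members, with bars for the standard error, coloured by family and filled where the edgeR adjusted p was under 0.05. All 22 points lie above 0 (21 with upper-quartile scaling or the replicate block, 20 with limma-voom). The widest bars belong to miR-466b-3p, miR-669a-3p and miR-669a-5p.

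The 46 members that were not tested had few counts: 4 had none in any library, and 11 reached 10 counts in at least 1 library. Summed, the 46 had 54, 77 and 40 counts in C57BL/6 versus 164, 182 and 181 in MRL/lpr. These sums include miR-466c-3p, miR-466a-3p and miR-669o-3p, which had counts in MRL/lpr libraries only. In some of those libraries the tested rows miR-466b-3p or miR-669a-3p were at or near 0, so the sums are not separate from that pattern. Besides miR-466a-3p, miR-466c-3p, miR-466e-3p and miR-669o-3p, the 11 were miR-669f-3p, miR-466b-5p, miR-466m-5p, miR-466o-5p, miR-669e-5p, miR-669m-5p and miR-669p-5p. miR-669f-3p had 1, 4 and 2 counts in C57BL/6 versus 17, 8 and 4 in MRL/lpr. The 5p rows were at 0 in 1 to 5 of the 6 libraries: miR-669p-5p had 13 counts in C57BL/6 replicate 1 and 0 elsewhere, miR-669m-5p had 10, 7 and 0 against 0, 14 and 0, and miR-466o-5p had 3, 0 and 0 against 0, 15 and 0. miR-466m-5p had 0, 0 and 7 against 22, 0 and 8, miR-466b-5p 0, 10 and 3 against 20, 2 and 25, and miR-669e-5p 0, 6 and 7 against 19, 3 and 13 counts. No fold change is given for these rows.

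Place in the intron could be read for the 14 tested members that come from a single hairpin there, 13 hairpins in all. These hairpins start 96.7 to 144 kb from the start of Sfmbt2, and their members' log2 fold changes ran from 0.44 to 1.54. Among them miR-467b-5p, the highest, and miR-466g reached the filter's count minimum only in MRL/lpr libraries, so their values had to be above 0. Spearman's rho between position and log2 fold change was -0.10 over the 14, which share libraries and reads and are not independent. Near the upstream end, miR-669f-5p, miR-669b-5p and miR-669l-5p had log2 fold changes of 0.96, 0.97 and 0.66. Near the downstream end, miR-466d-3p, miR-669o-5p and miR-466g had 1.01, 0.68 and 0.90. Both arms of Mir467d could be compared: miR-467d-5p had 1.03 ± 0.32 SE and miR-467d-3p 1.31 ± 0.41 SE.

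**Figure D4:**
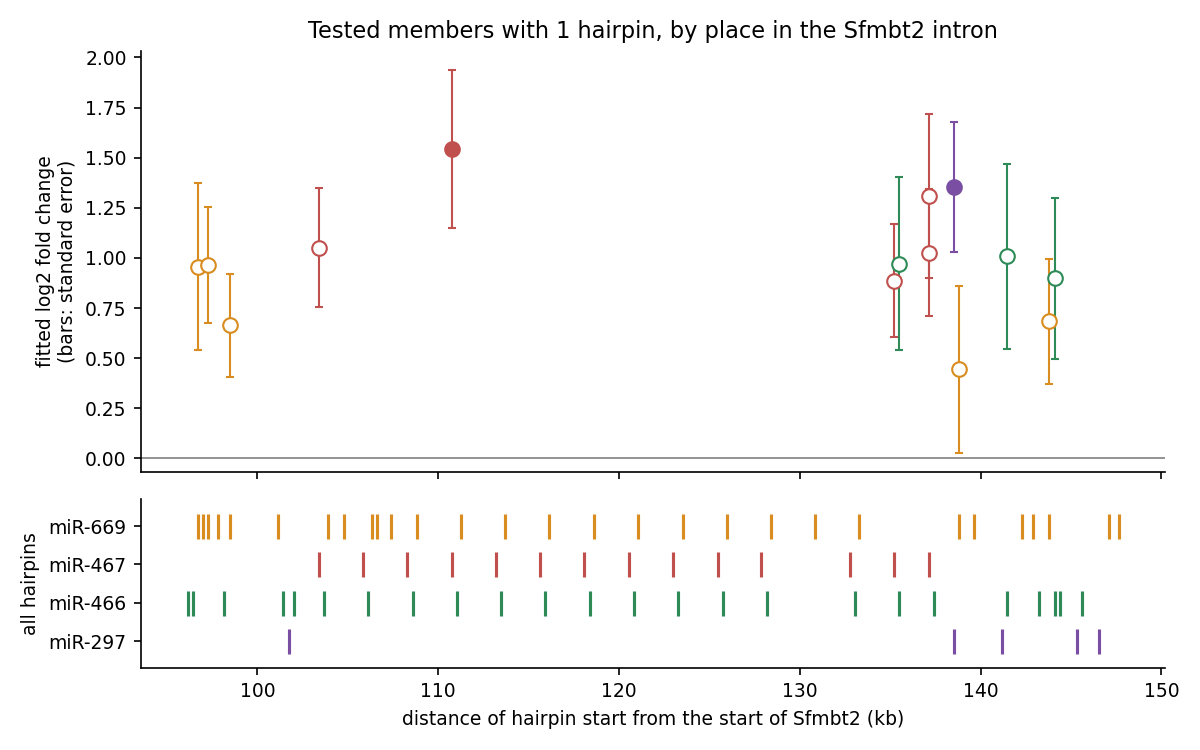
Top, fitted log2 fold change with its standard error for the 14 tested members with 1 hairpin, against the distance of the hairpin from the start of Sfmbt2 in kb (filled where the edgeR adjusted p was under 0.05). Bottom, all 72 hairpins inside Sfmbt2 by family. Values above 0 occur along the whole stretch, those of miR-467b-5p and miR-466g being fixed by the filter.

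The 5p strands held most of the family counts in every library, at 96.1%, 93.6% and 95.6% in C57BL/6 versus 93.2%, 94.5% and 92.2% in MRL/lpr. The group means were 95.1% ± 1.32 and 93.3% ± 1.16 (SD, n = 3; exact permutation p = 0.2), and the groups overlapped. The 3p share varied by family. In miR-297 and miR-467 the 3p share stayed at or below 0.9% and 3.14% in each library. In miR-669 it was 2.21%, 5.22% and 3.62% in C57BL/6 versus 7.80%, 5.13% and 9.54% in MRL/lpr. In miR-466 the 3p strands were nearly as common as the 5p strands, at 38.2% to 43.1% of counts in C57BL/6 versus 38.4% to 46.9% in MRL/lpr.

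Within the C57BL/6 group, replicate 2 differed from replicates 1 and 3. In it 19 of the 22 tested members and all 8 sums exceeded their values in both of those. The 7 leukocyte and myeloid miRNAs listed as markers (miR-142a-3p, miR-142a-5p, miR-150-5p, miR-155-5p, miR-146a-5p, miR-223-3p and miR-511-3p), all of which had counts, had a summed level of 28460 CPM in that library, 6033 and 5805 CPM in the others of its group and 9078 to 10670 CPM in MRL/lpr. Most of that sum was miR-146a-5p, a miRNA of activated immune cells, at 25570 CPM in C57BL/6 replicate 2. The 7 did not move together: 4 log2 fold changes were above 0 and 3 below (miR-146a-5p, miR-223-3p and miR-511-3p), with a median of 0.24, and 1 rose: miR-155-5p, induced in activated lymphocytes and macrophages, at 57.1, 102 and 50.9 CPM versus 174, 145 and 200.1 CPM (log2 fold change 1.30 ± 0.30 SE; edgeR, adjusted p = 0.0331). The row miR-142a-3p, which defines blood cells, was at 34.4, 88.8 and 25.7 CPM versus 145, 111 and 151 CPM (log2 fold change 1.45 ± 0.45 SE, edgeR adjusted p = 0.0943). In these 2 miRNAs, unlike the other 5 of the list, each MRL/lpr library was above each C57BL/6 library, as in 14.0% of all 451 miRNAs tested. Over all miRNAs tested 4.21% were called higher, the share to set beside the calls in these lists. The 11 kidney epithelium miRNAs, all with counts and 2 of them higher in MRL/lpr (miR-204-5p and miR-802-5p, edgeR), had a sum of 109500 CPM in C57BL/6 replicate 2 and of 140300 to 155600 CPM in the other 5 libraries. For the 4 erythroid miRNAs, of which 3 were tested and none passed, the sum was 594 CPM in C57BL/6 replicate 2 and 2841 to 4306 CPM in the other 5 libraries. The liver miRNA miR-122-5p had 4.50 to 11.2 CPM in C57BL/6 versus 2.48 to 8.73 CPM in MRL/lpr. The part of other cell types in the difference between strains was not tested. In whole tissue, more cells of a type and more RNA per cell cannot be told apart.

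**Figure D5:**
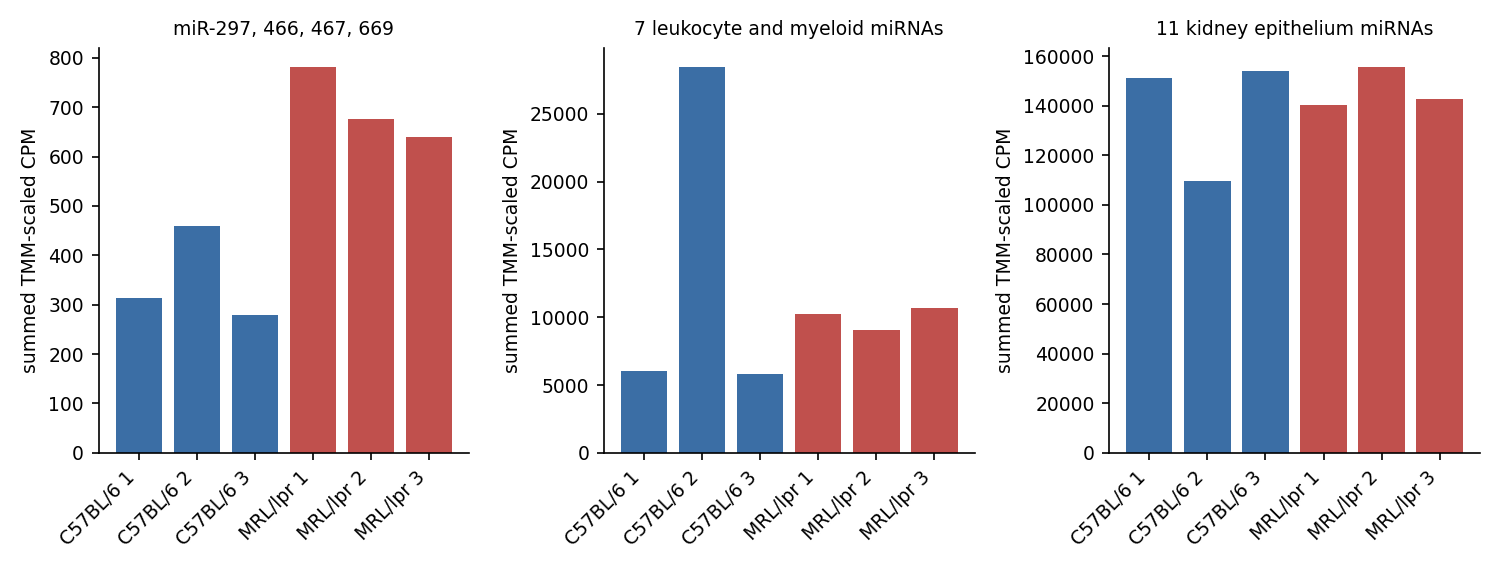
Summed TMM-scaled CPM in each library of the 68 rows of the 4 families (left), of 7 leukocyte and myeloid miRNAs (middle) and of 11 kidney epithelium miRNAs (right). The family sum is 279 to 459.6 CPM in C57BL/6 versus 640.0 to 781 CPM in MRL/lpr, while the leukocyte and myeloid sum is highest in C57BL/6 replicate 2.

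Without C57BL/6 replicate 2, edgeR called 7 of the 8 sums and 12 of 27 tested members, all higher, with 8.65% and 8.94% of all rows called higher. Leaving out the highest C57BL/6 library raises the difference by construction, so these counts are no separate support. Among the 12, miR-467a-3p then reached the filter's count minimum only in MRL/lpr libraries and so had to be higher. Without C57BL/6 replicate 1, C57BL/6 replicate 3 or MRL/lpr replicate 3, no sum and no member passed. In these 3 runs 3.14%, 2.34% and 1.06% of all miRNAs were called in either direction, and 3.49%, 3.1% and 1.76% of rows with the sums. Without MRL/lpr replicate 1 no sum passed either (3.81% of rows called). The 2 members that did (4.1% of all miRNAs) were miR-466c-3p, higher, and miR-466b-3p, lower. Each reached the filter's count minimum only in the group where it was higher, so its direction was fixed. In that run the miR-466 3p sum, which holds both rows, had a log2 fold change of 1.125 (edgeR adjusted p = 0.154). Without MRL/lpr replicate 2 the 2 sums called with all libraries, miR-467-5p and miR-297-5p, passed (7.76% of rows called in either direction). So did 3 members, miR-467a-5p, miR-297c-5p and miR-466a-3p, all higher. Of these, miR-466a-3p had no counts in C57BL/6, reached the filter's count minimum only in MRL/lpr libraries and so had to be higher. Over all 481 miRNAs tested in that run 15 were called higher and 15 lower, 6.24% in either direction. Over all alternatives miR-467a-5p passed in 9 of 14, miR-297c-5p in 8 of 14 and miR-297a-5p in 7 of 14. The log2 fold changes of all 8 sums stayed above 0 with each library left out, with medians from 0.992 to 1.503. Since the groups overlapped in none of the 8, leaving a library out could hardly turn a sign, so this is no separate support. DESeq2 called 6 sums and 7 of 37 members, all higher (4.79% and 5.26% of its rows). A filter of 10 CPM in 3 libraries gave 5 of 6 sums and 7 of 12 members, all higher (8.04% and 8.56%). With no filter 6 of 10 sums and 6 of 64 members were called higher (2.54% and 2.44%) and 1 member lower. The calls made with no filter include miR-466a-3p, higher on counts in 2 libraries, and miR-669p-5p, lower on counts in 1.

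Of 7 other miRNAs listed as built from GU repeats or of related sequence, 6 were in the table and 1 was tested: miR-574-5p, from a hairpin outside Sfmbt2, had 14.9, 29.7 and 14.96 CPM in C57BL/6 versus 8.61, 16.7 and 11.3 CPM in MRL/lpr (log2 fold change -0.71 ± 0.37 SE, edgeR adjusted p = 0.302). Among 14 listed miRNAs of the imprinted Dlk1-Dio3 cluster, which is expressed from the maternal allele, 9 were tested, none passed, and all 9 log2 fold changes were below 0 (median -0.98). Over all 451 miRNAs tested 2.0% were called lower, and 48.6% of log2 fold changes were above 0. The lowest edgeR adjusted p of the 9 was 0.0503, for miR-127-3p. For it each MRL/lpr library was below each C57BL/6 library, as in 14.9% of all miRNAs tested.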

How the data were processed

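Small RNA libraries were made from kidney RNA by adapter ligation, PCR and gel size selection, per the labels' protocols. The authors' single table holds counts, whole numbers for each mature miRNA that were deposited without normalization. Bowtie2, DESeq2 and GRCm38.p6 are named in the submitters' processing notes. For reads matching several miRNAs, the rule of assignment is not given in the sources used. GRCm38 is a C57BL/6 genome; whether sequence differences of MRL/lpr affect the counts was not tested.

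Each column name gave the group, age and replicate of 1 sample. Tests used edgeR 4.0.16 (limma 3.58.1, under R 4.3.3): filterByExpr (minimum count 10, minimum total 15), TMM, a robust quasi-likelihood fit on group alone (biological coefficient of variation 35.1%) and Benjamini-Hochberg adjustment over all rows tested, threshold 0.05. For the sums, the member rows were replaced by counts summed per family number and arm and the whole table was fitted again. That fit had its own TMM factors, so CPM of these sums and of single rows differ slightly in scale and do not add up exactly. The fit was tested on simulated data. Each SE is the absolute edgeR log2 fold change divided by the square root of the F statistic of its test. Alternatives were other scalings and filters, DESeq2 1.42.0, limma-voom, the replicate number as a block and each library left out. Sums by shared seed were planned and could not be formed, since the 5 sequences matched have 5 different seeds. Hairpins come from GENCODE M21, matched by name and by older RefSeq symbols. Values are given for members past the threshold, the 12 most abundant members, untested members that reached 10 counts, and every sum. The members and lists were chosen with earlier results of these data known. Figures were drawn with matplotlib 3.10.9.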

Additional observations from a re-analysis of the deposited data

How the results depend on the processing

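Calls among members numbered 4 in all, 4 with RLE scaling or library size alone and 3 with upper-quartile scaling. They were 7 with no filter (6 higher, among them miR-466a-3p with counts in 2 libraries, and 1 lower, miR-669p-5p with counts in 1), 7 with a filter of 10 CPM in 3 libraries, 7 with DESeq2, 1 with limma-voom and 0 to 12 with each library left out. Calls among sums were 2 with each scaling and with limma-voom, 6 with no filter, 5 with the filter of 10 CPM, 6 with DESeq2 and 0 to 7 with each library left out. Over all miRNAs 28 calls of 451 tested became 64 of 1395 with no filter, 51 of 608 with DESeq2 and 34 of 292 with the filter of 10 CPM. They were 5 to 54 with each library left out. Of 451 tested, 30 were called with RLE scaling, 28 with upper-quartile scaling, 30 with library size alone and 21 with limma-voom. With the replicate block, calls fell to 0 among members, 0 among sums and 13 over all miRNAs. Same-numbered libraries did not deviate together (correlations -0.343, 0.0196 and -0.327) and no label pairs them. Library size alone moved the median log2 fold change of all miRNAs tested from -0.027 to 0.12 and the split of calls from 19 higher and 9 lower to 24 and 6. No sum changed sign in any alternative, which with a library left out largely follows from groups that do not overlap. miR-466b-3p turned to -0.03 with upper-quartile scaling, -2.68 with limma-voom and -1.92 with the replicate block, and ran from -5.39 to 0.64 with each library left out. miR-669a-3p turned to -0.13 with limma-voom. The cause of these changes was not tested. The difference in share of counts kept its direction in every alternative, as it had to with a library left out, since the groups did not overlap. The difference in 5p share, -1.80 percentage points, shrank to -0.09 (exact permutation p = 0.9) over the members past the filter. Depth limits the 46 untested members, and groups of 3 are too small for a test of outlying libraries. Sums by shared seed gave no value.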
